A study of Mus musculus with 56 samples.

Results

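The genes described here sense DNA damage or repair it, and they were read in single epithelial cells from colon tumors of a mouse. They are 39 genes given by symbol, all 39 of which were found among the 24410 gene IDs of the table, and they were sorted into 8 repair routes by what their products are known to do. The mouse was a male ApcMin/+ animal, which carries a truncating mutation of the Wnt regulator Apc and forms intestinal tumors. Dextran sulfate sodium, which injures the colon lining, was given at 2% in drinking water for 5 days from 10 weeks of age, and at 12 weeks 3 tumors of 1 mouse were mixed. Cells were sorted one by one as alive, EpCAM-positive, CD24-positive, CD31-negative and CD45-negative, and cDNA in which PCR of 32 cycles detected the stem cell gene Lgr5 was sequenced. No second group of cells was labelled: every cell carried the Apc mutation and came from the same treated animal, so all comparisons below are between cells of 1 mouse, described with no test and no p-value.

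The 56 libraries held 50 separate profiles, because 6 pairs of libraries had a Pearson's r of 0.957 to 0.992 and were averaged as 1 cell each; the next highest r among 1540 pairs was 0.782. Values were TPM (transcripts scaled to a fixed total per library), which are corrected for gene length and keep no read depth, so the depth behind a value is unknown. A value of at least 1 TPM counted as seeing the gene in that cell. Of the genes of the sort, Epcam and Cd24a were seen in all 50 cells, and Pecam1 (CD31) and Ptprc (CD45) in 0. Lgr5, for which the cDNA was chosen, was seen in 38 of 50 cells (median 2.18, 0 to 16.2 TPM), and so was below 1 TPM in the others. Cells with Mki67 or Top2a, both genes of dividing cells, at 1 TPM or more were called cycling (22 cells), and the other 28 non-cycling. The higher of these 2 values was at most 0.59 TPM in non-cycling cells and at least 1.35 TPM in cycling ones. The cell nearest to the threshold, N708-N505, was cycling by Mki67 alone, with Top2a at 0. Cycling cells also had more genes seen, with a median of 6182 (5554 to 7234) against 5639 (1316 to 6484), and the part of this in the differences below was not tested. The cell with 1316 genes, N708-N503, was non-cycling and held 0 of the 39 genes.

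Damage is first sensed by kinases and adaptor complexes, which halt the cell cycle and recruit repair. Double-strand breaks are joined directly by end joining in any phase or copied from the sister chromatid by homologous recombination, which needs replicated DNA. Base and nucleotide excision, mismatch repair and direct reversal mend damaged or mispaired bases. Among damage response and repair genes, the tumor suppressor p53 and mismatch repair are well known guards against tumor growth in the intestine.

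Repair genes were unequal in how often they were seen. A cell held a median of 14 of the 39 genes, with a range of 0 to 24. The median was 13 (0 to 16) in non-cycling cells and 18 (11 to 24) in cycling cells, so the ranges overlapped at 11 to 16. As a share, a median of 33.3% of the 39 genes was seen per non-cycling cell and 46.2% per cycling cell, whereas of the 9166 genes reaching 1 TPM in at least 20% of cells it was 58.1% and 62.9%. Within i7 indexes N704 to N707 the medians were 13 and 16.5 genes, and within N708 to N710 they were 14 and 21. These index groups held 22 and 6 non-cycling cells, and 10 and 12 cycling cells. Of the 39 genes, 24 themselves reached 1 TPM in at least 20% of cells and 15 did not. The 9166 were chosen for being seen that often, so their shares are not a like background for the 39 genes.

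**Figure D1:**
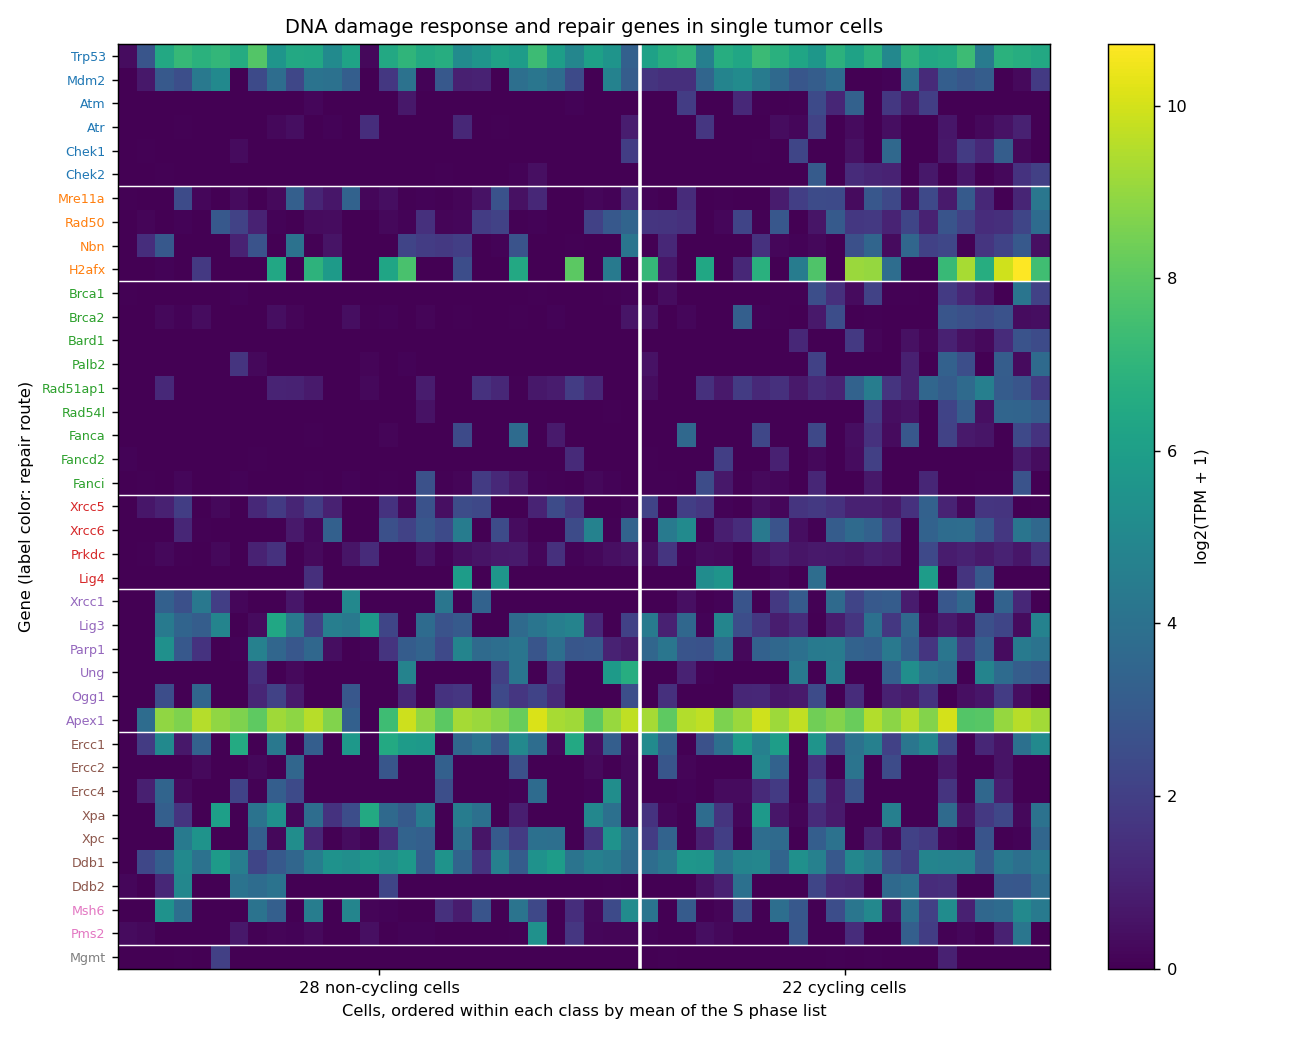
Level of each of the 39 genes (rows, colored and divided by repair route) in each of the 50 cells (columns), as log2(TPM + 1), with non-cycling cells on the left and cycling cells on the right, ordered by the mean of an S phase list. Apex1, Trp53 and Ddb1 form nearly unbroken rows, while Brca1, Bard1 and Rad54l are dark in all 28 non-cycling cells.

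Outside cycling cells, 9 of the 39 genes were seen in at least 50% of the 28 cells, against 36.4% of the 14034 genes seen in at least 1 cell. These 9 were Ddb1 (27 cells), Trp53 and Apex1 (26 each), Mdm2, Lig3 and Parp1 (20 each), Ercc1 (17), and Xpa and Xpc (16 each). They belong to damage signaling, base excision and nucleotide excision, and none to recombination, end joining, break sensing or mismatch repair. Another 11 genes were seen in 1 to 4 non-cycling cells. Atm, Chek2, Brca1, Brca2, Bard1 and Rad54l were seen in 0 of 28 non-cycling cells, which allows a share of up to 12.3% each (exact Clopper-Pearson interval at 95%, counting error only). Each of these 6 was seen in 5 to 7 cycling cells. Of 9 of the 39 genes seen in 5 to 7 cells altogether, these 6 had no non-cycling cell, while among all 1068 genes seen in 5 to 7 cells the share was 6.84%, and among all 14034 genes 6.93%. Only Mgmt was seen in 0 cycling cells, and it was seen in 1 cell in all.

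**Figure D2:**
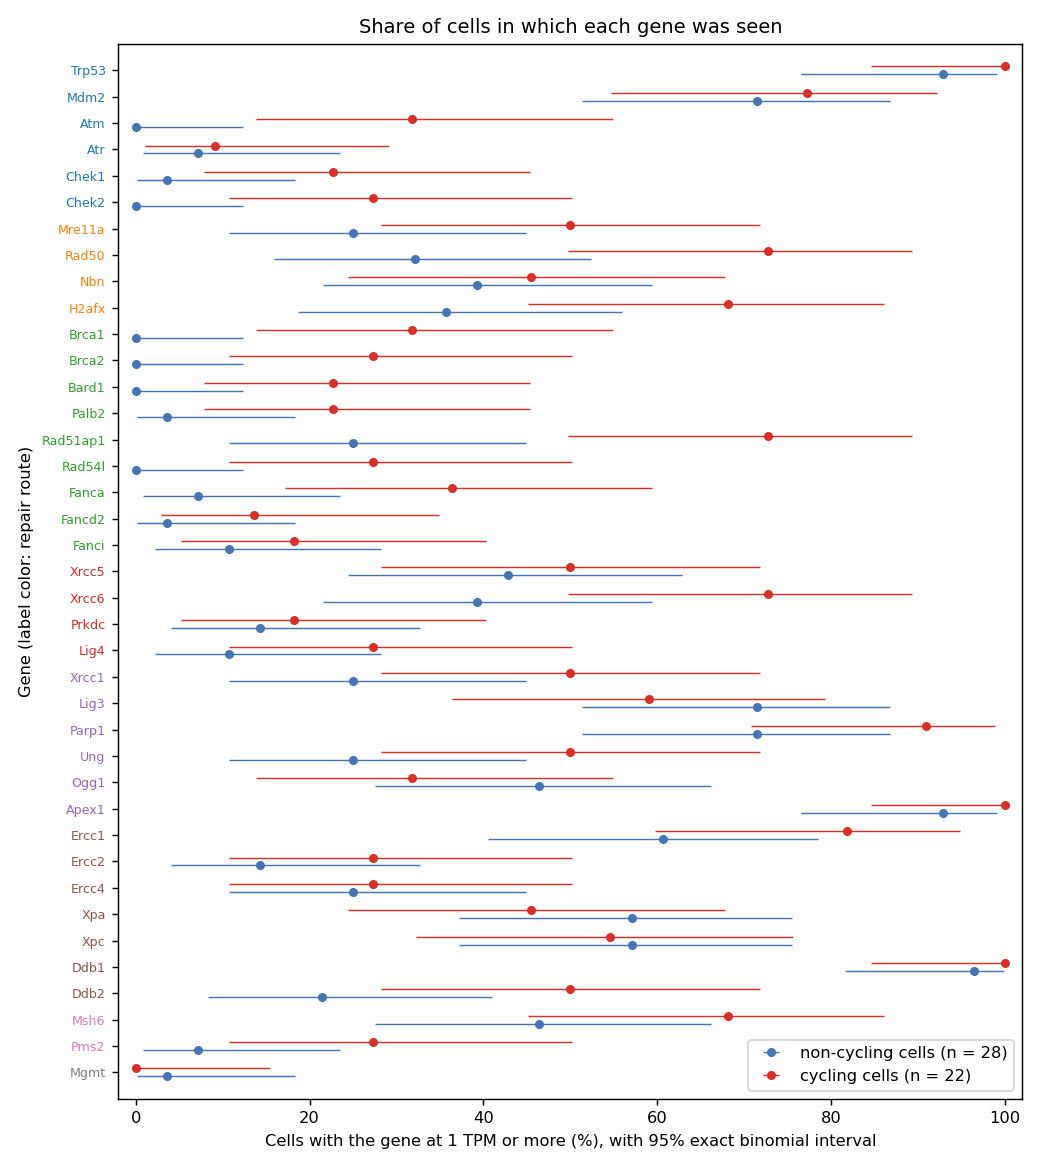
Share of non-cycling (blue, 28) and cycling (red, 22) cells in which each gene reached 1 TPM, in percent, with 95% exact binomial intervals that cover counting error only. The intervals do not overlap for Atm, Brca1 or Rad51ap1, while they do for Ddb1, Xpc and Lig3.

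Damage signaling was led by the p53 pair. Trp53, which encodes the transcription factor p53, ran from 0.17 through a median of 72.4 to 228 TPM in non-cycling cells and from 21.1 through 97.5 to 163 TPM in cycling cells. The groups overlapped over most of their range, and the 2 cells below 1 TPM were N708-N503 and N707-N503, those with the fewest genes seen. Mdm2, the ubiquitin ligase that degrades p53 and is itself a p53 target, had medians of 5.82 TPM (0 to 32.7) in non-cycling and 6.26 TPM (0 to 34.9) in cycling cells. It was seen in 20 of 28 and 17 of 22 cells, and thus about as often in either group.

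The checkpoint kinases were rarely seen. Atm, the kinase that answers double-strand breaks, reached 1 TPM in 7 cells, at 1.23 to 9.08 TPM, all cycling (7 of 22, 31.8%, interval 13.9% to 54.9%). Chek2, the kinase that Atm activates, did so in 6 cells, at 1.02 to 7.41 TPM, again all cycling. Atr, the kinase of stalled replication forks, was seen in 2 non-cycling and 2 cycling cells and stayed at or below 3.36 TPM. Chek1, its target kinase, was seen in 5 cycling cells at up to 11.4 TPM and in a single non-cycling cell, N708-N508, at 2.89 TPM. That cell also held 18 of 25 S phase genes, the most of any non-cycling cell, against a median of 7. Of 14 further checkpoint genes, 6 had a mean at least 1 higher in cycling cells on the log2 scale and 0 at least 1 lower. Rad1, a subunit of the clamp that activates Atr, was seen in 16 of 22 cycling and 7 of 28 non-cycling cells (a difference of 2.57), and Rad9a, of the same clamp, in 13 and 4 (2.05). Lowest in difference were Mdm4, a p53 inhibitor and partner of Mdm2, seen in 16 and 22 cells (-0.72), and Trp53bp1, a break-site scaffold, seen in 11 and 14 (-0.17).

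Genes that p53 is known to induce were near the background of all genes. Of 25 such genes, not counting Mdm2, a median of 15 was seen per non-cycling and 16 per cycling cell, beside the 58.1% and 62.9% of the 9166 genes. Among them, 3 were at least 1 log2 higher in cycling cells, beside 13.5% of the 9166, and 0 at least 1 lower. Bax, which permeabilizes mitochondria in cell death, had the largest difference, 1.86, followed by Perp, of cell junctions, at 1.46, and the kinase gene Plk2 the lowest, -0.999, after Btg2, an antiproliferative gene, at -0.65. The cell cycle inhibitor gene Cdkn1a had a median of 144 TPM and was seen in 43 cells. Across the 50 cells Spearman's rho of Trp53 with Mdm2 was 0.22 and with Cdkn1a 0.08, so both relations were weak.

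Break sensing was carried unevenly by its 4 genes. H2afx encodes the histone H2AX, which is phosphorylated around breaks, and it had the widest spread of the 39 genes. In non-cycling cells it was at 0 in most, reached 1 TPM in 10 of 28 and peaked at 254 TPM, while in cycling cells it ran from 0 through a median of 91.1 to 1677 TPM and was seen in 15 of 22. The mean of log2(TPM + 1) was 2.01 (SD 2.99) in non-cycling and 4.89 (SD 3.93) in cycling cells, a difference of 2.88, and it was 3.64 within i7 indexes N704 to N707, 1.59 within N708 to N710, 1.35 within i5 indexes N502 to N505 and 3.42 within N506 to N517. The groups overlapped, as 7 cycling cells did not reach 1 TPM. The MRN complex, which binds broken ends, is made from Mre11a, Rad50 and Nbn. Rad50 was seen in 9 of 28 non-cycling and 16 of 22 cycling cells, Mre11a in 7 and 11, and Nbn in 11 and 10. The highest value of the 3 in any cell was 17.7 TPM.

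Homologous recombination and Fanconi genes had the lowest level of the routes with more than 2 genes, and most cells that held several were cycling. A non-cycling cell held a median of 0 and at most 2 of the 9 genes, and a cycling cell a median of 2 and at most 6. All 7 cells with 4 or more were cycling, and they held a median of 23 of 25 S phase genes. Of the 19 cells with none, 17 were non-cycling. The promoters of 3 of these genes are shown as examples, from 250 bases before to 50 after the annotated start (RefSeq, GRCm38.p6), with that of Ddb1, which was seen in 49 cells. They lie at chr11:101551906-101552205 (minus strand) for Brca1, chr4:116123641-116123940 (minus) for Rad54l, chr6:126939538-126939837 (minus) for Rad51ap1 and chr19:10605347-10605646 (plus) for Ddb1. Capitals mark CCAAT, or ATTGG where it lies on the other strand, the letters that the factor NF-Y binds.
Brca1: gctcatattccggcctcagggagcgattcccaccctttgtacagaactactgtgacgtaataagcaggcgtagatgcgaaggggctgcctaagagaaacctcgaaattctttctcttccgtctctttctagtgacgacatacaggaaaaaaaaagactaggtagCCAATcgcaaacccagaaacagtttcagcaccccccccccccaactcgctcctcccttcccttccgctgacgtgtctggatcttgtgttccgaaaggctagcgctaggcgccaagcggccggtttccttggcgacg
Rad54l: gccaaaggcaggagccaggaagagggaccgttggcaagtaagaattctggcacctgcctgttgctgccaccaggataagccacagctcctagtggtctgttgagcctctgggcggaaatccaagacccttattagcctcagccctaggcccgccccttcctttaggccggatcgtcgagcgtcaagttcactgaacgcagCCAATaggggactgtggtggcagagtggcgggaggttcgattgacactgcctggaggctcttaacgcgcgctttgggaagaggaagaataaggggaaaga
Rad51ap1: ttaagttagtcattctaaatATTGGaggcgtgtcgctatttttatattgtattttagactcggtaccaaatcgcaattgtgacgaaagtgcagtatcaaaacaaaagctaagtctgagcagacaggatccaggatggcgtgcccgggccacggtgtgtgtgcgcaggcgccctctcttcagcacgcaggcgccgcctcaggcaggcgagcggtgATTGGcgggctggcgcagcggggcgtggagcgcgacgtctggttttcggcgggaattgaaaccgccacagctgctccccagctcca
Ddb1: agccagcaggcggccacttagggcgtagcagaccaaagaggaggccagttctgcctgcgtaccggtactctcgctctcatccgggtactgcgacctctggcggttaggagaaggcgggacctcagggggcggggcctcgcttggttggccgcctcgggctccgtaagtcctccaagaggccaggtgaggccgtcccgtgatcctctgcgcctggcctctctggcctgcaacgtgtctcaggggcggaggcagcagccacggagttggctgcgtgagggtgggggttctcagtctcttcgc

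CCAAT was searched on both strands, together with TTTCGCGC and TTTGGCGC, which E2F factors bind in genes of DNA synthesis, and TTTGAA, the cell cycle homology element of mitotic genes. Promoters were matched for 32 of the 39 genes. CCAAT was in 20 of these 32, in 5 of 8 matched recombination genes and in 4 of the 8 matched genes seen in at least 50% of non-cycling cells, against 37.9% of 27025 promoters of the same length. The promoters printed above do not stand for their groups. Brca2, Bard1 and Fanci had no CCAAT, whereas Trp53 and Apex1 had it. The E2F letters were in 0 of 32 (0.833% of all promoters) and TTTGAA in 1, Bard1 (18.1% of all). Only exact copies of these letters were searched, so 0 of 32 does not show that the promoters lack E2F sites. A match describes these windows only.

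Brca1 recruits recombination enzymes to breaks, and Bard1 encodes its partner. Brca1 was seen in 7 cycling cells, at 1.28, 1.81, 2.51, 3.28, 3.29, 4.99 and 17.0 TPM, and was at most 0.07 TPM in any non-cycling cell. Bard1 was seen in 5 cycling cells, at 1.27, 1.5, 2.42, 4.38 and 5.67 TPM, and was listed at 0 in all 28 non-cycling cells. The cell N708-N502 had the highest value of both, and they were seen together in that cell and in N710-N506. Brca2, which acts in strand exchange, was seen in 6 cycling cells at 4.41 to 8.57 TPM. Palb2, which links Brca1 to Brca2, was seen in 5 cycling cells and in the non-cycling cell N707-N507 at 2.07 TPM.

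Rad54l encodes a motor that drives strand exchange, and it was seen in 6 cycling cells, at 2.58, 3.44, 7.63, 8.04, 9.83 and 10.2 TPM. In non-cycling cells its highest value was 0.43 TPM, and 16 cycling cells were also below 1 TPM, so the groups overlapped. Rad51ap1, whose product promotes the pairing of DNA strands, was the most frequent gene of the route, in 7 of 28 non-cycling (25%, interval 10.7% to 44.9%) and 16 of 22 cycling cells (72.7%, interval 49.8% to 89.3%). Its median was 0 TPM (highest 2.78) in the former and 1.94 TPM (highest 23.8) in the latter, and the difference of log2 means was 1.52. It was 1.24 and 2.10 within the i7 groups and 1.67 and 1.12 within the i5 groups, so it was above 1 in each.

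The Fanconi genes, whose products clear crosslinks between DNA strands, were seen in cells of both groups. Fanca, of the core complex, was seen in 8 cycling and 2 non-cycling cells, and its highest value, 12.5 TPM, was in a non-cycling cell. Fancd2 and Fanci encode the pair that the core complex tags with ubiquitin. Fancd2 was seen in 3 cycling and 1 non-cycling cell at up to 3.14 TPM, and Fanci in 4 and 3 at up to 5.78 TPM; no cell held both at 1 TPM. Among the 36 pairs of the 9 recombination and Fanconi genes, rho across cells had a median of 0.28 (-0.12 to 0.67), against 0.10 over 641 pairs of genes from different routes. The highest were Rad54l with Bard1 (0.67, seen together in 3 cells) and Rad51ap1 with Bard1 (0.61, in 4 cells). Of 28 further genes of recombination and the Fanconi pathway, 8 were seen in 0 non-cycling cells, 7 were at least 1 log2 higher in cycling cells and 0 at least 1 lower. Rpa2, a subunit of the protein that coats single strands, was seen in 15 of 22 cycling cells and in 1 of 28 others (a difference of 3.45), and Ube2t, the enzyme that passes ubiquitin to Fancd2, in 13 and 2 (1.84). Rbbp8, which starts end resection, was seen in 15 and 16 (0.09), and Fancl, of the core complex, in 10 and 8 (0.33).

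End joining had its 2 Ku genes in many cells and its kinase and ligase in few. Ku binds broken ends as a dimer of the products of Xrcc5 and Xrcc6. Xrcc6 was seen in 11 of 28 non-cycling cells (median 0.09 TPM) and 16 of 22 cycling cells (median 7.20, highest 33.7 TPM), a difference of 1.29 between log2 means. It was 1.15 and 1.35 within the i7 groups, but 2.33 within i5 indexes N502 to N505 and 0.49 within N506 to N517, so it did not reach 1 in the latter. Xrcc5, seen in 12 and 11 cells, had medians of 0.78 and 1.05 TPM and a difference of 0.14. The genes of the dimer thus differed in TPM, and the Xrcc6 gene overlaps Desi1 on the opposite strand. Prkdc, the kinase that Ku recruits, was seen in 4 and 4 cells at up to 4.08 TPM. Lig4, the ligase that seals the ends, was seen in 3 and 6 cells, with values from 1.70 to 60.2 TPM, and so was seen in few cells at widely differing levels. Of 9 further end joining genes, 2 were at least 1 log2 higher in cycling cells and 0 lower. These were Rnf168, a ubiquitin ligase at breaks (1.31), and Poll, a gap-filling polymerase (1.25), whereas Dclre1c, the nuclease Artemis, differed by 0.01 and Rnf8 by 0.23.

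Base excision and single-strand break repair had the highest level of the routes, and this level rested largely on Apex1. Over the 50 cells the mean of log2(TPM + 1) was 8.39 for Apex1. It was 2.75 for Parp1, 2.39 for Lig3, 1.36 for Ung, 1.15 for Xrcc1 and 0.86 for Ogg1. The mean of the nucleotide excision route was 1.93, and the order of routes without Apex1 was not computed. Apex1, which cuts the backbone at sites that lack a base, had a median of 478 TPM (0 to 1090) in non-cycling and 563 TPM (highest 1040) in cycling cells. It was at 0 in N707-N503 and N708-N503, and the difference of log2 means of 1.13 went to 0.84 without N708-N503 and to 0.37 among the 42 cells with 5000 to 7000 genes seen. It was 1.14 and 1.69 within the i7 groups and 1.46 and 0.73 within the i5 groups. N708-N503 was among the only 6 non-cycling cells of N708 to N710, where differences without that cell were not computed for any gene. Parp1, which marks strand breaks with poly(ADP-ribose), was seen in 20 of 28 and 20 of 22 cells, at medians of 6.34 and 9.90 TPM. Its difference of log2 means was 0.08 within i7 indexes N704 to N707 and 1.95 within N708 to N710, and 0.02 and 1.81 within the i5 groups, so it was near 0 in 1 group of each split.

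Lig3, which seals the nick, leaned the other way. Its median was 7.48 TPM (0 to 83.0) in non-cycling and 2.22 TPM (0 to 28.1) in cycling cells, and it was seen in 20 of 28 and 13 of 22. The difference of log2 means was -0.73, with SDs of 2.04 and 1.59 in the groups, -0.82 and -0.04 within the i7 groups, and -0.85 and -0.64 within the i5 groups, so it was small beside the spread between cells and near 0 in N708 to N710. Xrcc1, the scaffold that holds Lig3, was seen in 7 and 11 cells. Ogg1, which removes oxidized guanine, was seen in 13 of 28 and 7 of 22 cells at no more than 10.2 TPM. Ung, which removes uracil from DNA, was seen in 7 and 11 cells. Its highest value was in the non-cycling cell N708-N508, which held 18 of 25 S phase genes, as given above. Of 15 further base excision genes, 2 were at least 1 log2 higher in cycling cells (Lig1, the ligase of replication, by 1.96 and Parp2 by 1.62) and 0 lower. The glycosylase gene Neil1 differed by 0.10.

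Among routes with more than 1 gene, nucleotide excision had the smallest difference between cycling and non-cycling cells. The mean of log2(TPM + 1) over its 7 genes was 1.91 (SD 0.70) in non-cycling and 1.95 (SD 0.71) in cycling cells. Ddb1, which recognizes ultraviolet damage with Ddb2 and also serves a ubiquitin ligase, was seen in the most cells of the 39 genes, 49, at a median of 21.5 TPM (0 to 59.1) in non-cycling and 19.7 TPM (highest 48.5) in cycling cells. Ddb2, its damage-binding partner and a p53 target in human cells, was seen in only 6 and 11 cells. Ercc1, part of the nuclease that cuts beside the lesion, had medians of 8.16 and 14.3 TPM in the groups and was seen in 17 and 18 cells, whereas Ercc4, which encodes the other part, was seen in 7 and 6. Xpa, which verifies the lesion, was seen in 16 of 28 and 10 of 22 cells, at medians of 3.42 and 0.66 TPM. Xpc, which finds distorted DNA, was seen in 16 and 12 at medians of 1.78 and 1.76 TPM. Ercc2, a helicase that opens DNA, was seen in 4 and 6 cells. Of 16 further genes of the route, 8 were seen in at least 50% of non-cycling cells, and 3 were at least 1 log2 higher in cycling cells. The largest differences were 2.18 for Cetn2, which binds Xpc, and 1.64 for Gtf2h5, a subunit of TFIIH, and the smallest were -0.52 for Cdk7 and -0.18 for Mnat1, both of the kinase arm of TFIIH.

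Mismatch repair and direct reversal were thinly covered. Msh6, which recognizes mispaired bases, was seen in 13 of 28 non-cycling cells (median 0.48, highest 42.8 TPM) and 15 of 22 cycling cells (median 7.06, highest 35.6 TPM), with groups that overlapped throughout. Pms2, which nicks the strand to be replaced, was seen in 2 and 6 cells, the highest at 42.3 TPM in a non-cycling cell. Mgmt, which lifts alkyl groups from guanine, reached 1 TPM in 1 of 50 cells, N704-N507, at 3.03 TPM. Of 5 further mismatch repair genes, 0 differed by 1 or more on the log2 scale. Mlh3 was seen in 27 of 28 and 22 of 22 cells. Of 8 further genes of reversal and lesion bypass, 0 differed by 1 or more, and the smallest difference was -0.81 for Alkbh3, which removes alkyl groups and was seen in 18 of 28 and 11 of 22 cells.

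Ordered by the mean of log2(TPM + 1) over a route's genes, the median over 50 cells was 2.86 for base excision, 1.86 for nucleotide excision, 1.64 for damage signaling, 1.44 for break sensing, 1.29 for mismatch repair, 0.99 for end joining, 0.24 for recombination and Fanconi, and 0 for direct reversal. The SD over cells was 0.81, 0.70, 0.47, 1.14, 1.23, 0.77, 0.55 and 0.31 in that order. Nucleotide excision, damage signaling, break sensing and mismatch repair thus lay within 1 SD of each other. The first place of base excision rested largely on Apex1, as given above. Cycling minus non-cycling, the difference of means was 1.10 for break sensing, 0.69 for recombination and Fanconi, 0.65 for mismatch repair, 0.61 for end joining, 0.42 for damage signaling, 0.41 for base excision, 0.04 for nucleotide excision and -0.02 for direct reversal. The value for break sensing came largely from H2afx, at 2.88. The other genes of that route differed by 0.82 (Rad50), 0.58 (Mre11a) and 0.14 (Nbn). Across cells, rho with the S phase mean was 0.75 for recombination and Fanconi, 0.59 for break sensing and -0.01 for nucleotide excision. These correlations share the libraries and their number of genes seen, with which rho was 0.66, 0.57 and 0.15.

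**Figure D3:**
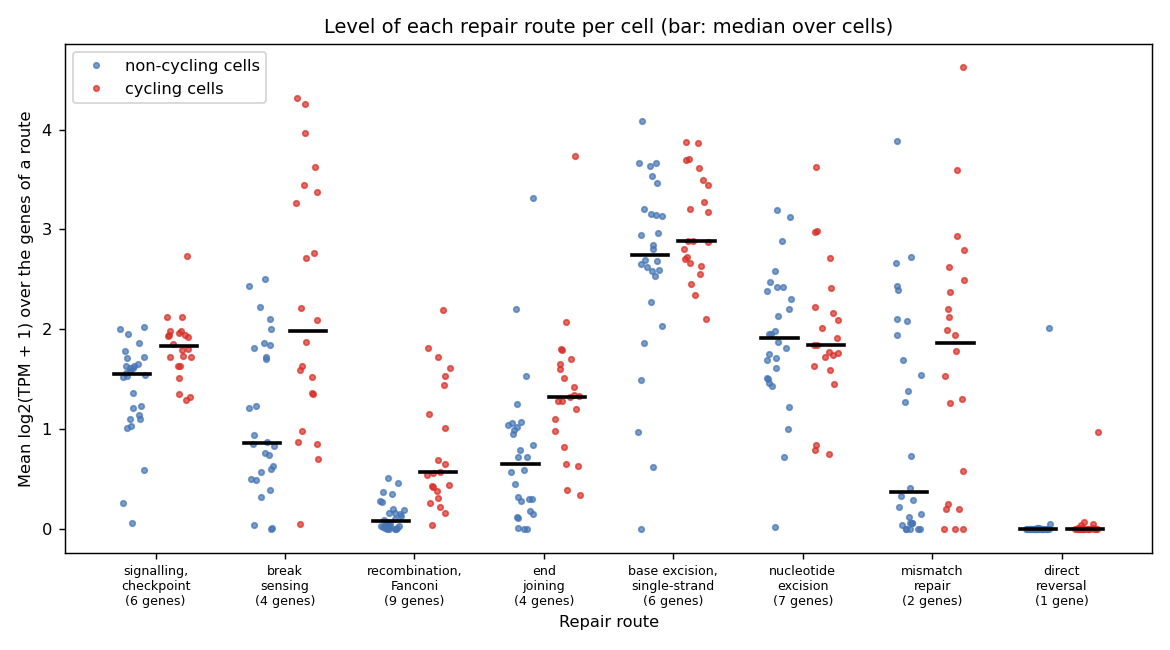
Mean log2(TPM + 1) over the genes of each route (y axis) in non-cycling (blue) and cycling (red) cells, with 1 point per cell and a bar at the median. Recombination and Fanconi genes lie near 0 in non-cycling cells and reach 2.19 in cycling ones, whereas nucleotide excision spans a like range in both.

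Over all 39 genes, 32 had a higher mean of log2(TPM + 1) in cycling cells, against 67.3% of the 9166 genes above and 61.9% of the 14034 seen in at least 1 cell, and the median difference was 0.54, against 0.24 over the 9166. At least 1 higher were 4 of the 39 (H2afx, Rad51ap1, Xrcc6 and Apex1), or 3 without N708-N503, against 13.5% of the 9166 and 9.27% of the 14034, so by this size the 39 genes were near the background. At least 1 lower were 0, against 1.73%. Low genes cannot move far on this scale. Without ribosomal protein genes and Gm10925, with TPM rescaled, 9 genes were at least 1 higher, against 18.6% of genes, with the median difference of all genes at 0.32. Of the 7 genes with a lower mean in cycling cells, Mdm2 changed sign under that scaling, and Lig3, Xpa, Xpc, Ogg1, Ercc4 and Mgmt did not.

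The relation to Prox1, the transcription factor that the title of the series sets against quiescence, was read across cells as Spearman's rho of log2(TPM + 1). Prox1 was seen in 23 of 28 non-cycling cells (median 18.2 TPM, 0 to 48.4) and 18 of 22 cycling cells (median 8.35 TPM, 0 to 66.8). The median rho of the 39 genes with Prox1 was -0.10, against 0.05 over the 9166 genes and 0.03 over the 14034. Negative were 24 of the 39, against 40.4% of the 9166 and 43.1% of the 14034. At or below -0.3 were 8 of the 39, against 3.26% of the 9166 genes and 2.95% of the 14034 seen in at least 1 cell. These were Bard1 (-0.44), Mre11a (-0.40), Chek2 (-0.38), Rad54l (-0.37), Brca1 (-0.36), Chek1 (-0.33), Pms2 (-0.33) and Rad51ap1 (-0.30). Of these 8, only 2, Mre11a and Rad51ap1, were among the 24 of the 39 genes that belong to the 9166. The others were seen in 5 to 8 cells, where rho rests on few values. All 9 recombination and Fanconi genes were negative, and these genes go together across cells, so their signs are not separate observations. Of these 9, 4 were at or below -0.3, with a median rho of -0.17. Among the 28 further genes of recombination and the Fanconi pathway there were 4, with a median of -0.07. Among the 25 S phase genes there were 16, with a median of -0.37.

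**Figure D4:**
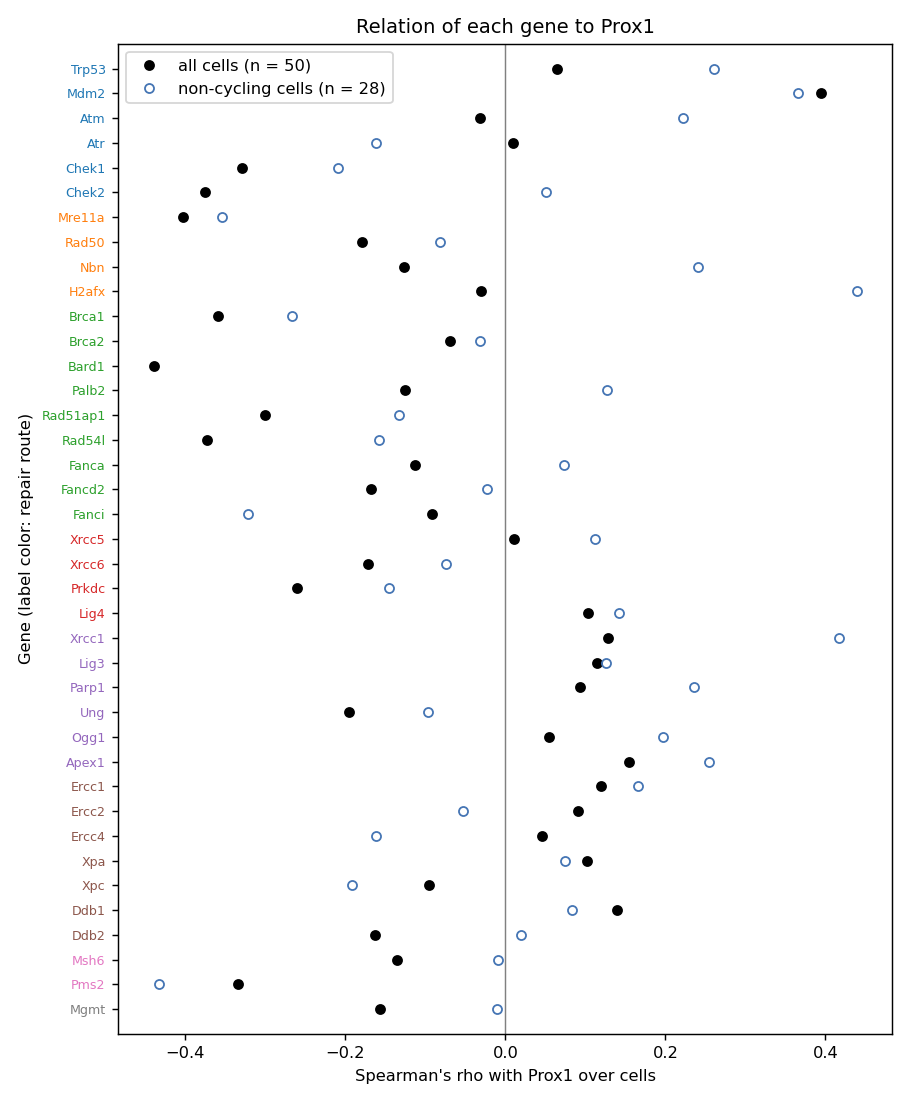
Spearman's rho of each gene with Prox1 (x axis) over all 50 cells (filled) and over the 28 non-cycling cells (open); Bard1 has no open point because it was at 0 in all of the latter. Mdm2 stands at 0.39 over all cells and 0.37 over non-cycling cells, while Bard1 is lowest over all cells at -0.44.

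Prox1 was set beside the number of these genes per cell. The 7 cells with 4 or more recombination and Fanconi genes had a median Prox1 of 2.92 TPM (0.05 to 18.7), the 11 cells with 2 or 3 had 11.7 TPM (0 to 49.2), the 13 cells with 1 had 15.5 TPM (0.06 to 66.8), and the 19 with none had 17.8 TPM (0 to 45.5). These ranges overlapped, and Prox1 reached 10 TPM in 2 of 7, 7 of 11, 8 of 13 and 13 of 19 cells. In the 7 cells with Brca1 the median of Prox1 was 2.96 TPM, against 17.4 TPM in the other cells, and in the 6 cells with Rad54l it was 1.75 against 17.2 TPM. Brca1 and Rad54l were seen together in 5 cells, so these are largely the same cells. The gap was smaller for Fanca (11.1 against 17.2 TPM) and Fanci (10.0 against 17.0 TPM). For Fancd2 it went the other way, with 31.9 TPM in the 4 cells with it against 13.5 TPM.

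**Figure D5:**
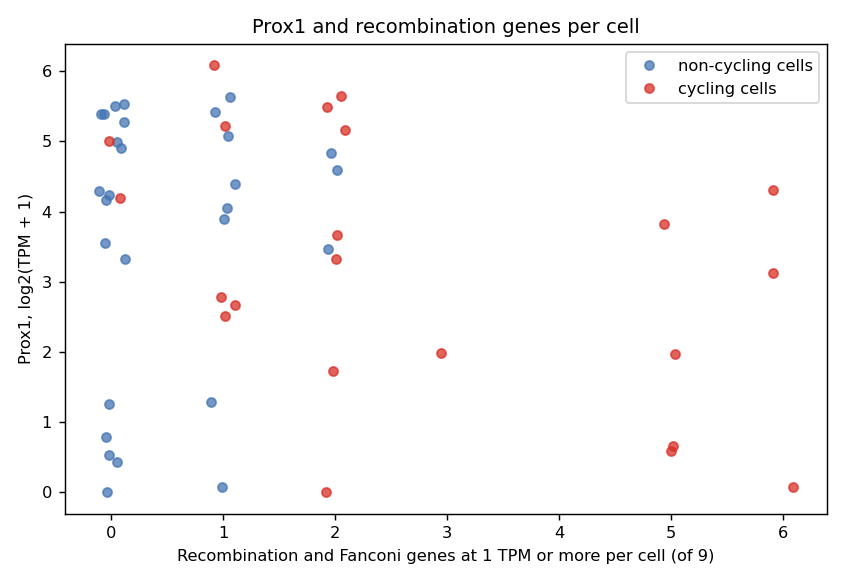
Prox1 as log2(TPM + 1) (y axis) against the number of the 9 recombination and Fanconi genes seen in a cell (x axis, points spread sideways to part them), with non-cycling cells in blue and cycling cells in red. The 7 cells with 4 or more such genes are all cycling and have a Prox1 of 0.05 to 18.7 TPM.

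Both Prox1 and these genes moved with S phase. With the S phase mean, rho was -0.44 for Prox1 and 0.75 for the mean of recombination and Fanconi genes. Given that mean, the partial rho between Prox1 and the recombination and Fanconi mean was 0.13, where rho itself was -0.25. Given the same mean, 0 of the 39 genes remained at or below -0.3, against 0.611% of the 9166. Within the 28 non-cycling cells the median rho of the 39 genes was 0.00 against 0.09 for the 9166. There 3 genes were at or below -0.3 (Pms2, Mre11a and Fanci), against 3.96%, and 3 at or above 0.3 (H2afx, Xrcc1 and Mdm2), against 16%. Within the 22 cycling cells, 11 of the 39 were at or below -0.3, against 13.7% of the 9166, and 2 at or above 0.3, against 15.7%. There rho of Prox1 with the mean of all 39 was -0.59, and -0.84 and -0.47 in the 10 and 12 of them in the i7 groups, but -0.03 given the S phase mean. Over all cells, rho with the recombination and Fanconi mean was -0.29 in N704 to N707 and 0.01 in N708 to N710, and -0.46 and -0.14 in the i5 groups, so it did not hold in every index group.

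Mdm2 was the single gene of the 39 at or above 0.3 over all cells, with a rho of 0.39, against 8.59% of the 9166 and 6.66% of the 14034 genes. The 39 genes thus held no larger share of such genes than all genes did. For Mdm2, rho was 0.37 in non-cycling and 0.49 in cycling cells, 0.35 and 0.56 in the i7 groups, and 0.37 and 0.44 in the i5 groups. These groups are parts of the same 50 cells in which Mdm2 had the highest rho of the 39. They are therefore not separate support. Prox1 had a median of 18.6 TPM in the 37 cells with Mdm2 and 2.92 TPM in the 13 without it. Trp53 itself had a rho of 0.06 with Prox1. Of the other 25 p53 target genes, 2 were at or above 0.3 (Phlda3 at 0.31 and Zmat3 at 0.30, named after their values were seen) and 0 at or below -0.3, and their median rho was 0.04. Mdm4 had a rho of 0.46. The 14 further checkpoint genes, of which it is 1, had a median rho of -0.15, with 2 at or below -0.3.

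Reads of overlapping genes cannot be told apart where strand was not used, and the sources used here do not say whether it was. Of the 39 genes, 27 overlap another annotated gene and 18 overlap one in the table, among them Lig3 (Rffl), Apex1 (Pip4p1), Ddb1 (Tkfc), Xpa (Ncbp1) and Msh6 (Fbxo11), while Trp53, Brca1, Mdm2, Atm, Chek1 and Chek2 overlap none. Trp53 lies at chromosome 11, 69580359 to 69591873 (plus strand), Brca1 at chromosome 11, 101488764 to 101551955 (minus), H2afx at chromosome 9, 44334694 to 44336077 (plus), and Mdm2 at chromosome 10, 117688875 to 117710758 (minus), in GRCm38. A processed copy, Trp53-ps, is annotated, and reads shared with it were not separated here. Of 12 immune, 6 endothelial and 7 fibroblast marker genes, 6, 4 and 5 were seen in no cell. In at least 50% of cycling cells 2 immune genes, 0 endothelial genes and 1 fibroblast gene were seen, and in at least 50% of non-cycling cells 1, 0 and 0; of the immune genes 1 was at least 1 log2 higher in cycling cells. Their part in the differences above was not tested. The summed immune list had medians of 115 TPM (0 to 285) in non-cycling and 138 TPM (1.66 to 473) in cycling cells.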

How the data were processed

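The authors' deposited table gives TPM per gene and library, with a column for each of 56 libraries. Per the submitters' processing notes, bcl2fastq 1.8.4, Bowtie2 2.2.9, RSEM 1.2.31 and GRCm38.p4 were used; for settings, annotation release and strand: not given in the sources used here. Columns were matched to samples by index pair. GENCODE M21 symbols for GRCm38 matched 24235 IDs.

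The members, routes and gene lists were chosen with earlier results of these data known. Pairs of libraries correlated above 0.9 (Pearson, on log2(TPM + 1)) were averaged as 1 cell. Seen means 1 TPM or more. Differences are of means of log2(TPM + 1), cycling minus non-cycling; a size of 1 and a rho of 0.3 stand in for calls. Intervals are exact Clopper-Pearson at 95% and cover counting error only. All 39 members, Prox1, Mki67, Top2a and the sort genes are named; of other lists counts, and from the 2 largest and 2 smallest differences among genes reaching 1 TPM in 20% of cells. Cdkn1a was named after its values were seen. Some genes that this rule names are not reported here. No test was run, since cells of 1 mouse are not replicates. The statistics were tested on simulated data. No doublet caller was run, because TPM hold no counts and the sort was of single cells. Promoters are from RefSeq. Scripts used SciPy 1.17.1, pandas 2.3.3, numpy 2.4.6, matplotlib 3.10.9 and Python 3.11.15. The cell with the fewest genes was kept, and alternatives are given in the closing section.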

Additional observations from a re-analysis of the deposited data

How the results depend on the processing

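With 17 alternatives, 74 of 103 recomputed values stayed within 1.5 times the count or within 1 SD of the level and kept their direction, and 29 did not. Where seen meant above 0 TPM, a cell held a median of 22 members and 20 members were seen in at least 50% of non-cycling cells; at 10 TPM these were 7 and 3. The number at least 1 log2 higher in cycling cells, 4, was 9 without ribosomal protein genes and Gm10925. Where non-cycling meant Mki67 and Top2a listed at 0 (14 cells), it was 2. With a pseudocount of 0.1 it was 22 (30.8% of the 9166 genes), and with 10 it was 1 (2.41%). The number of members with a rho with Prox1 at or below -0.3, 8, was 5 by Pearson's r, 0 by partial rho given the S phase mean and 3 in non-cycling cells; the median rho, -0.10, turned to 0.033 by the partial rho and to 0.0048 in non-cycling cells. Route levels follow the pseudocount by construction. With 0.1 and 10 they were -0.37 and 3.99 for damage signaling, -0.33 and 3.68 for break sensing, -2.47 and 3.36 for recombination and Fanconi, -0.79 and 3.51 for end joining, 1.66 and 4.66 for base excision, 0.58 and 3.93 for nucleotide excision, -0.42 and 3.60 for mismatch repair, and -3.32 and 3.32 for direct reversal. The cause of the other changes was not tested. Leaving out the 6 averaged cells, keeping cells with 5000 to 7000 genes seen, and taking cycling cells alone were chosen after seeing the data. TPM keep no depth, so a value listed at 0 may be a gene that was missed. No paired analysis was possible because the labels give 1 group.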
